A study of Mus musculus with 12 samples.

Results

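Wild-type netrin-1 was compared with an empty vector in CGR8 cells, a line of mouse embryonic stem cells, by RNA sequencing. The comparison takes all genes of the 3 libraries titled netrin-1 (netrin-1 WT) and the 3 libraries titled control, 6 of the 12 libraries of the series, with the replicate number of the title as a block. The medium of both groups held serum and LIF, the cytokine that keeps such cells undifferentiated. Controls were stable transfectants of the ppy-cagg-ires-puro vector without an insert, and netrin-1 WT cells were stable transfectants of that vector encoding netrin-1. Cells of the remaining 6 libraries carry netrin-1 with point mutations named for its receptors Unc5b (unc5B MUT, 3 libraries) and neogenin (neo1 MUT, 3 libraries); they entered the estimate of the spread and, for the lead genes, a comparison with netrin-1 WT. Whether the transfectants were clones or pools, and whether replicates were grown apart, is not stated, so the p-values cover only library-to-library spread and part of it could be technical.

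Netrin-1 is a secreted protein related to laminins. It is best known for steering growing axons, through Dcc and neogenin, which mostly attract, and Unc5 receptors, which mostly repel. Several of these are called dependence receptors because, without ligand, they can trigger cell death. Embryonic stem cells in serum and LIF are a mixture: most cells resemble the epiblast, a few resemble the primitive endoderm (the sheet that lines the blastocyst cavity and later forms the yolk sac), and a rare, passing fraction resembles the embryo at the stage of 2 cells.

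The 6 libraries held 22256195 to 41541395 estimated counts. The number 3 libraries of both groups stood apart, with 22256195 and 24736421 counts against 32753990 to 41541395 in the other 4, and the number entered the model as a block. All levels below are CPM, counts scaled to TMM-corrected library sizes, given for libraries 1, 2 and 3 in that order, and fold changes are log2 values, netrin-1 WT over control, ± SE. A gene is called when its adjusted p is below 0.05 in the edgeR quasi-likelihood test with the replicate block. Pluripotency genes were abundant in both groups (*Pou5f1*, mean 1261 CPM in controls and 1123 in netrin-1 WT). The 13 mesenchymal and feeder markers summed to 34.2, 36.8 and 50.7 CPM in controls and 33.4, 39.3 and 56.0 in netrin-1 WT, with *Dcn* at 0 in 5 of the 6 libraries. The 10 blood markers summed to 11.6 to 15.3 CPM in controls and 8.75 to 8.92 in netrin-1 WT, with *Hbb-bt* at 0 in all 6 and *Ptprc* at 0.318 or less. *Dcn*, *Hbb-bt* and *Ptprc* were too low to be tested. Most of each sum came from the 8 mesenchymal and 3 blood markers that were tested. The part of these markers in the results was not tested.

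*Ntn1*, the transfected gene, was read first as a check of the labels. It stood at 15.4, 9.09 and 0.782 CPM in controls and at 288, 223 and 76.9 CPM in netrin-1 WT. Every netrin-1 WT library lay above every control, and the number 3 library was the lowest in each group. The fold change was 4.85 ± 0.36 (adjusted p = 0.000293). Reads of the transgene and of the cell's own *Ntn1* are counted together and cannot be told apart. The other 2 netrins that could be tested, *Ntn4* and *Ntng2*, were not called.

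Of 21053 genes tested, 737 were called (3.50%), 367 higher (1.74%) and 370 lower (1.76%) in netrin-1 WT. The median fold change over all tested genes was 0.0066. TMM scaling brings this median close to 0, so it does not show whether total RNA changed. The lower genes included more large differences: 104 of them differed at least 4-fold, against 52 of the higher genes. All 3 libraries of 1 group lay above the other 3 for 256 of the higher and 261 of the lower genes, 70.2% of the calls, against 9.23% of all tested genes. Calls were made on these same libraries, so the larger share partly follows from the selection. Without the replicate block 21 genes were called (0.0997%), 7 higher (0.0332%) and 14 lower (0.0665%), and in a fit of the 6 libraries alone 100 of 18730. Leaving out the number 3 libraries of all groups gave 3450 calls (16.3%), 1539 higher (7.25%) and 1911 lower (9.0%), which held 713 of the 737. DESeq2 with the block called 1750 genes (8.31%), 828 higher (3.93%) and 922 lower (4.38%). Leaving out 1 of the 6 libraries gave between 211 calls (without control 1) and 1861 (without netrin-1 WT 3).

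**Figure D1:**
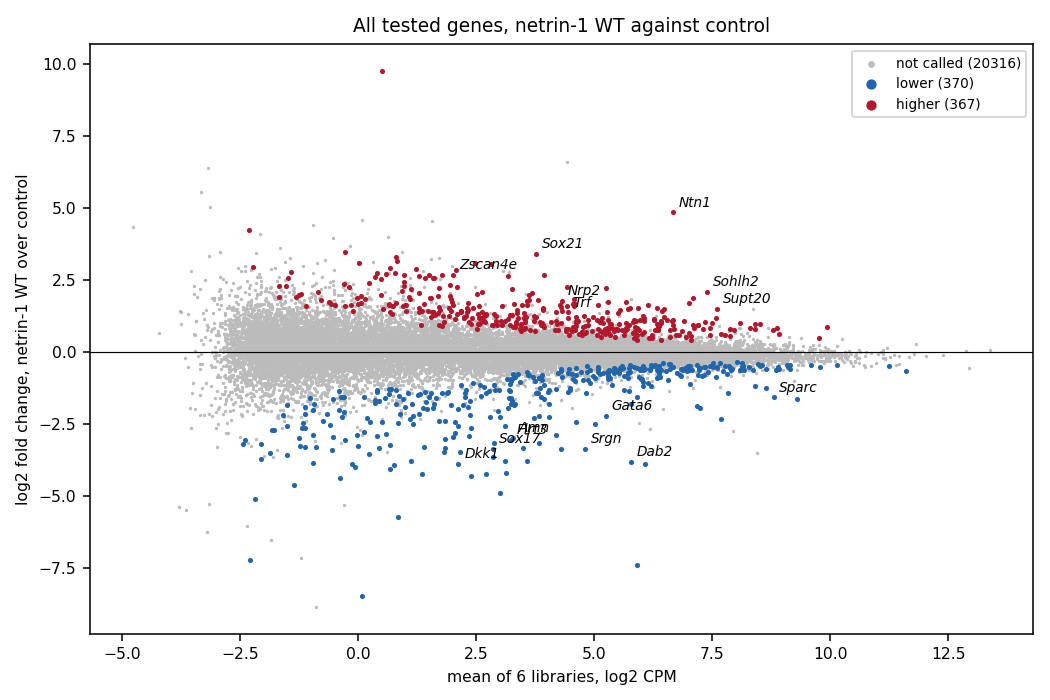
Log2 fold change of netrin-1 WT over control (vertical axis) against the mean level of the 6 libraries in log2 CPM (horizontal axis) for 21053 tested genes. Red points are the 367 genes called higher, blue points the 370 called lower and grey points those not called; *Ntn1* is at 4.85, and *Dkk1* and *Dab2* are at -3.90 and -3.83.

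Genes of the primitive endoderm fell. Across 6 lists that cover its transcription factors, receptors and signals, endocytic receptor, basement membrane, plasma proteins and parietal derivatives, 49 genes were tested, of which 29 fell and 1 rose, with a median of -1.49. Over all tested genes 1.76% were called lower and 1.74% higher, the shares to set beside this count and those of the single lists below. The lists were drawn up with earlier results of these data known, so these counts describe the lists and are not independent evidence of their direction. Without the replicate block 7 of the genes were called lower, and without the number 3 libraries 31. In bulk RNA a smaller share of primitive endoderm-like cells and less RNA of these genes per cell cannot be told apart.

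Among the 9 transcription factors of the lineage 7 fell, with a median of -3.04. *Gata6*, the factor that starts the primitive endoderm programme, measured 78.4, 59.7 and 50.3 CPM in controls and 11.9, 10.8 and 17.1 CPM in netrin-1 WT. The groups did not overlap, and the fold change was -2.23 ± 0.22 (adjusted p = 0.00066; 0.027 without the block). *Sox17*, which acts after *Gata6*, measured 19, 10.5 and 10.4 CPM against 1.53, 0.796 and 1.55 CPM, a fold change of -3.36 ± 0.32 (adjusted p = 0.000534). *Gata4*, a partner of *Gata6*, measured 22.7, 13.5 and 34.6 CPM against 3.20, 4.56 and 6.44 CPM (-2.24 ± 0.36, adjusted p = 0.00822). Again no netrin-1 WT library reached the lowest control. *Foxq1* had the highest control level after *Gata6*, 52.3, 31.6 and 24.3 CPM, and stood at 4.33, 3.0 and 2.76 CPM in netrin-1 WT (-3.39 ± 0.34). *Sox7* and *Foxa2* fell by 3.04 and 3.24 on the log2 scale from control levels under 10 CPM. *Hnf4a*, a regulator of liver and yolk sac genes, had a fold change of -1.04 ± 0.28 (adjusted p = 0.071) and *Hhex* one of -0.43 ± 0.17 (adjusted p = 0.197), and neither was called.

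**Figure D2:**
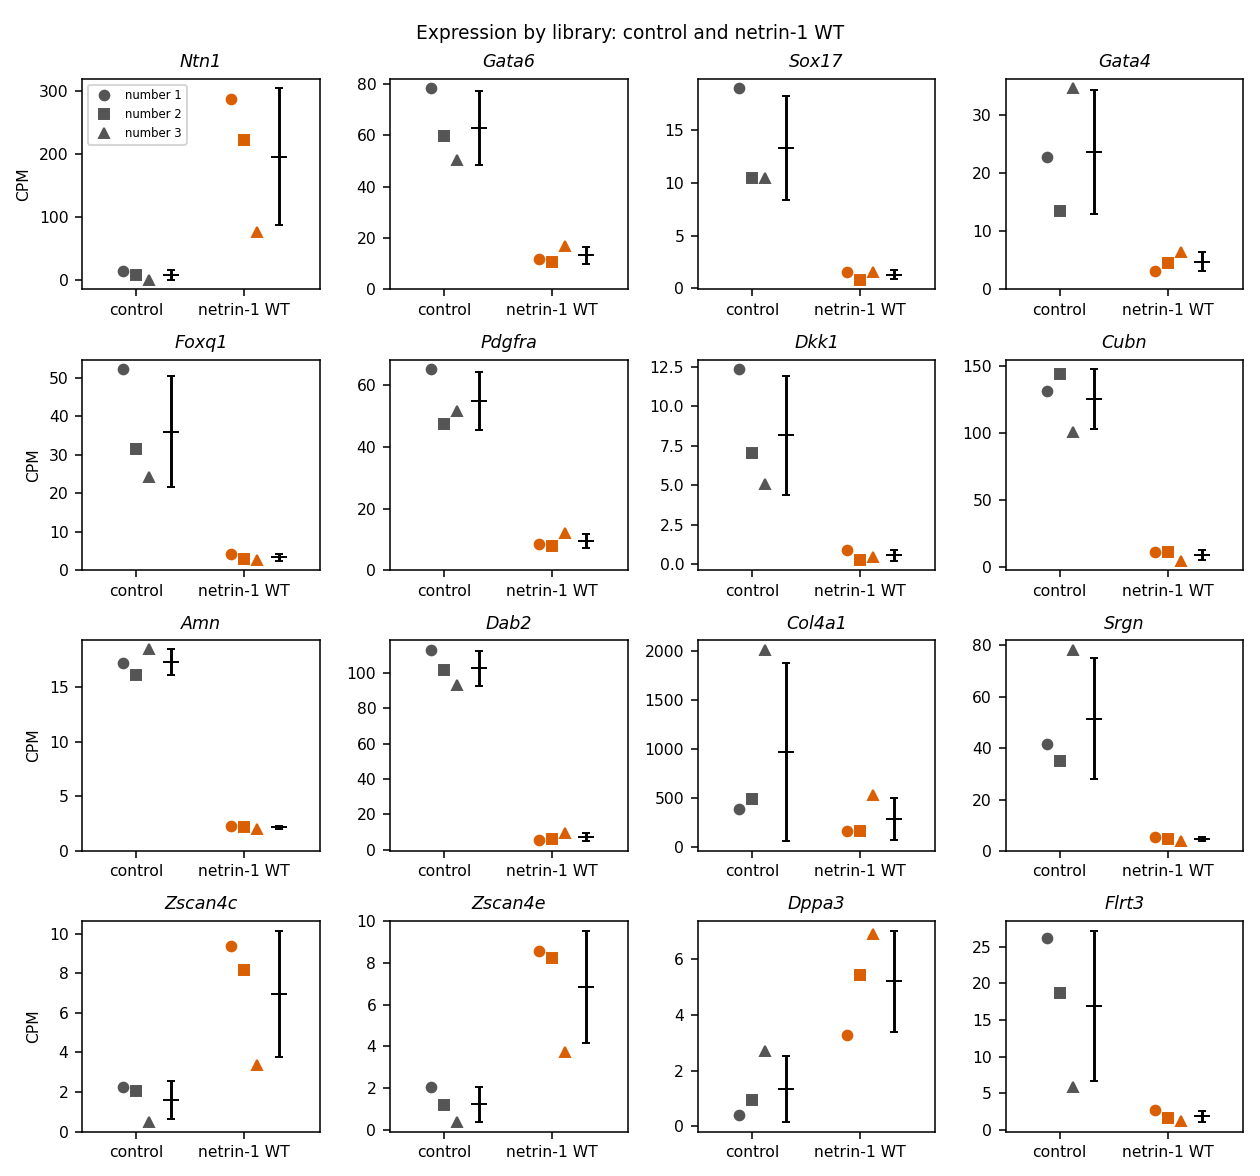
CPM (vertical axis, linear) of 16 genes in each control and netrin-1 WT library; circles, squares and triangles are numbers 1, 2 and 3, and the bar beside them is the mean ± SD of 3 libraries. *Ntn1*, the *Zscan4* genes and *Dppa3* are higher in every netrin-1 WT library than in any control, the other genes lower, except *Col4a1*, whose number 3 netrin-1 WT library (533 CPM) lies above control libraries 1 and 2 (396 and 495 CPM).

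Of the 9 tested receptors and secreted signals 6 fell, with a median of -2.31. *Pdgfra*, the platelet-derived growth factor receptor used to sort living primitive endoderm, measured 65.5, 47.5 and 51.8 CPM in controls and 8.64, 7.93 and 12 CPM in netrin-1 WT (-2.51 ± 0.24, adjusted p = 0.000534). *Fgfr2*, a receptor for Fgf4, measured 20.7, 11.1 and 33.2 CPM against 1.67, 3.0 and 10.2 CPM (-2.31 ± 0.34). *Dkk1*, a secreted Wnt antagonist, had the largest decrease of the list: 12.3, 7.03 and 5.08 CPM became 0.935, 0.292 and 0.485 CPM (-3.90 ± 0.34, adjusted p = 0.000396). The secreted ligands *Ihh* (-3.27 ± 0.47) and *Bmp2* (-2.97 ± 0.44) also fell, from control levels under 3 CPM. *Lefty1*, a Nodal antagonist, fell by 1.42 on the log2 scale, with control 3 (12.3 CPM) below netrin-1 WT 1 (26.8 CPM). *Fst*, *Vegfa* and *Cited1* were not called.

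The endocytic receptor of the visceral endoderm takes up maternal proteins. It is built of cubilin, which binds cargo, amnionless, which anchors cubilin in the membrane, and megalin (*Lrp2*), with *Dab2* as the adaptor to clathrin. Of the 6 genes of this system 5 fell, with a median of -2.06 and medians within numbers 1, 2 and 3 of -2.04, -1.98 and -2.20. *Cubn* measured 132, 144 and 100 CPM in controls and 11.0, 11.3 and 4.75 CPM in netrin-1 WT (-3.90 ± 0.34, adjusted p = 0.000396). *Dab2* measured 113, 102 and 93.2 CPM against 5.71, 5.89 and 9.74 CPM (-3.83 ± 0.46, adjusted p = 0.00164). For both genes the lowest control lay far above the highest netrin-1 WT library. *Amn* had the tightest values of the set, 17.3, 16.1 and 18.5 CPM against 2.31, 2.15 and 1.99 CPM (-2.99 ± 0.19, adjusted p = 0.000159; 0.0014 without the block). *Lrpap1*, the chaperone of megalin, fell by 1.12 and *Lrp2* itself by 0.47 on the log2 scale. For *Lrp2* the groups overlapped: control 3 stood at 68.7 CPM, below netrin-1 WT 1 and 2 at 126 and 135 CPM. *Tcn2*, a vitamin B12 carrier, was not called (-0.28 ± 0.24).

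The promoters of *Cubn*, *Amn* and *Dab2* are shown because these genes of 1 receptor system fell together from high or steady control levels. Each line gives the 250 bases before the RefSeq start on the gene's strand (build GRCm38.p6), 5′ to 3′, with capitals for the GATA-factor words AGATAA and TGATAA read on both strands.
Dab2, chr15:6299539-6299788, plus strand: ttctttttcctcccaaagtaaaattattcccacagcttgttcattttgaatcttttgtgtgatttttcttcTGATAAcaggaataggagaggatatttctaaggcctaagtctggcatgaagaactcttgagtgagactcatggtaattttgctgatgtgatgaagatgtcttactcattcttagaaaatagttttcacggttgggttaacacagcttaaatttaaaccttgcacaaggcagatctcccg
Cubn, chr2:13491877-13492126, minus strand: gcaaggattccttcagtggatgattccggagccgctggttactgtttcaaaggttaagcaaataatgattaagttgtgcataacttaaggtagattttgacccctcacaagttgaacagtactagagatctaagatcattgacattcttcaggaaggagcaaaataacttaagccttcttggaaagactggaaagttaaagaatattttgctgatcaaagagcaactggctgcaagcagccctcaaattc
Amn, chr12:111270846-111271095, plus strand: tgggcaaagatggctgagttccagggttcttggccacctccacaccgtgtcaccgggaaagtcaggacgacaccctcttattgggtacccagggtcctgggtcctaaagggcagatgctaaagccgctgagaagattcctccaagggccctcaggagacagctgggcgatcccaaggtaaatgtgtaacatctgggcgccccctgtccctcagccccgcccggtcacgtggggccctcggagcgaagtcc
*Dab2* holds 1 such word, 179 bases before its start, and the stretches of *Cubn* and *Amn* hold none. The words occurred in 16.6% of all 32851 RefSeq promoter stretches, in 12.6% of the stretches of genes called lower, 8.33% of those called higher and 10.6% of those tested and not called. Among genes called lower at least 4-fold the share was 17.7%, 20 of 113 stretches.

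Basement membrane genes divided. Of 12 genes 5 fell: both chains of type IV collagen, the laminin chains *Lama1* and *Lamb1*, and *Sparc*, a collagen-binding matrix protein. *Col4a2* measured 262, 224 and 548 CPM in controls and 49.8, 51.3 and 95.4 CPM in netrin-1 WT (-2.35 ± 0.20, adjusted p = 0.000396). *Col4a1*, which is read in the opposite direction from a start 21 bases away on chromosome 8, measured 396, 495 and 2013 CPM against 163, 162 and 533 CPM (-1.63 ± 0.23). Its groups overlapped, since netrin-1 WT 3 lay above controls 1 and 2, but within each number netrin-1 WT was lower. *Sparc* was the most abundant of the called members by control mean after *Col4a1*, at 550, 408 and 1037 CPM against 158, 140 and 381 CPM (-1.58 ± 0.18). *Lamb1* (-1.95 ± 0.38) and *Lama1* (-1.42 ± 0.22) fell too. *Lamc1*, the gamma chain that shares a trimer with *Lama1* and *Lamb1*, had a fold change of -0.19 ± 0.12 (adjusted p = 0.45), and *Nid1*, *Nid2*, *Agrn*, *Hspg2*, *Lama5* and *Col18a1* lay between -0.01 and 0.43 and were not called. The median of the list was -0.10.

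Of 12 genes for folding and modifying collagen 3 fell. *Serpinh1*, the collagen chaperone, measured 226, 181 and 270 CPM against 54.5, 41.2 and 93.5 CPM (-1.87 ± 0.24, adjusted p = 0.00212). *Crtap* and *Plod3* fell by 0.66 and 0.51 on the log2 scale. The prolyl and lysyl hydroxylases *P4ha2* (-1.0 ± 0.27, adjusted p = 0.078), *P4ha1* and *Plod1* were not called.

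Markers of parietal endoderm, the migratory derivative that lays down Reichert's membrane, fell in 4 of 6 tested genes. *Srgn*, a proteoglycan core protein, measured 41.5, 34.9 and 78.3 CPM in controls and 5.56, 4.72 and 4.02 CPM in netrin-1 WT (-3.37 ± 0.40, adjusted p = 0.00142). *Pth1r*, the parathyroid hormone receptor, fell from 8.50, 7.82 and 10.7 CPM to 1.01, 0.928 and 1.7 CPM (-2.92 ± 0.42). *Snai1*, a repressor of epithelial genes, and *Stra6*, a retinol transporter, fell by 1.7 and 1.49 on the log2 scale, and *Krt19* and *Plat* were not called. Plasma proteins of the visceral endoderm were mixed: *Apoa4* (under 1 CPM) and *Mttp* (-1.32 ± 0.25) fell, *Apoe*, *Apom*, *Apob* and *Rbp4* were not called, and transferrin, *Trf*, rose from 5.20, 6.07 and 27.6 CPM to 15.8, 17 and 59.1 CPM (1.37 ± 0.22, adjusted p = 0.00847). The *Trf* groups overlapped through control 3, and each netrin-1 WT library was above the control of its number.

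**Figure D3:**
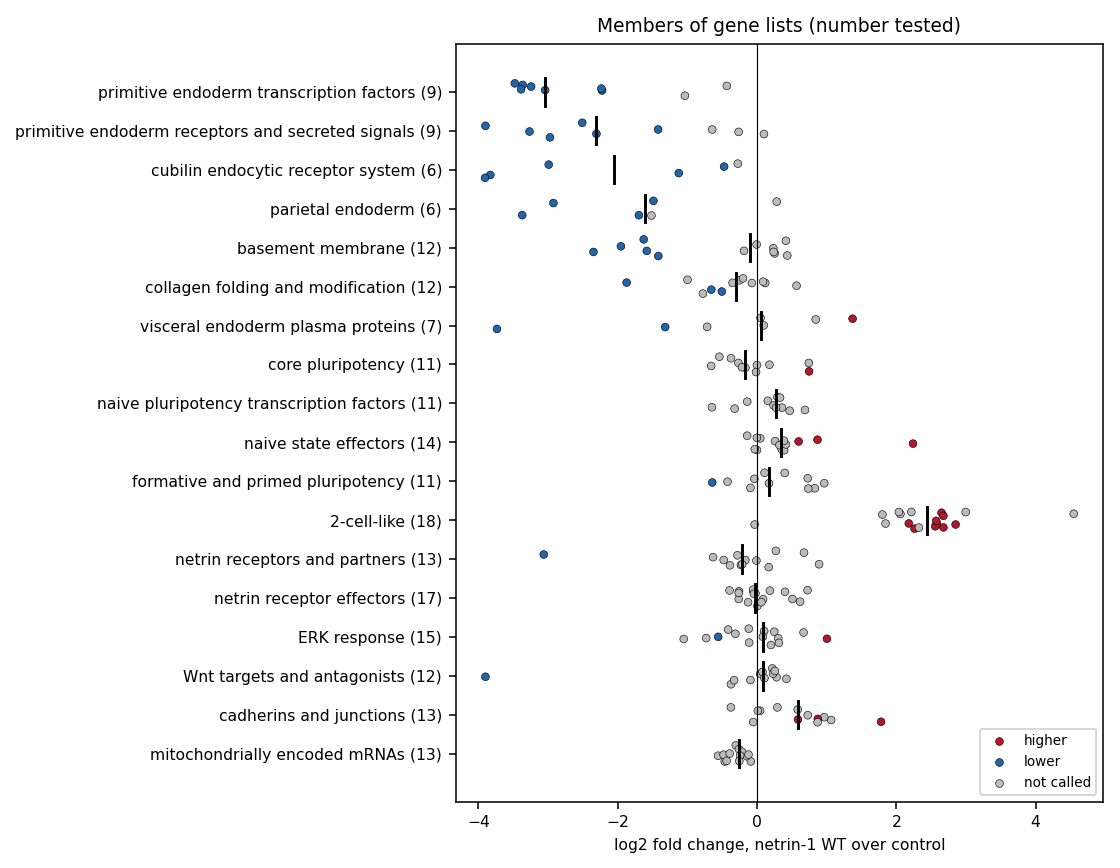
Log2 fold change of netrin-1 WT over control (horizontal axis) for each tested member of 18 gene lists (vertical axis, number tested in brackets). Red points are genes called higher, blue lower and grey not called, and the bar is the list median, -3.04 for primitive endoderm transcription factors, 2.44 for 2-cell-like genes and -0.17 for core pluripotency.

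Outside these lists, the rule for named genes took the largest decreases at 5 CPM or more. *Habp2*, a serum protease that binds hyaluronan, fell from 7.37, 8.63 and 30.8 CPM to 0.664, 0.371 and 0.242 CPM (-4.89 ± 0.74, adjusted p = 0.00587). *Aqp8*, a water channel, fell by 4.33, *Nxf7*, a relative of the mRNA export factor Nxf1, by 4.24, *Hkdc1*, a hexokinase relative, by 4.21 and *Nostrin*, an endocytic adaptor, by 3.81 on the log2 scale. *Clic6*, a chloride channel family member, *Tcf23*, a helix-loop-helix factor, and *Bmper*, a BMP-binding protein, fell by 3.80, 3.64 and 3.49. For each of these genes no netrin-1 WT library reached the lowest control. *Myo7a*, an unconventional myosin, *Lgals9*, a galectin, *Hesx1*, a homeobox repressor, and *Pgam2*, a phosphoglycerate mutase, were called lower with and without the block, with fold changes of -3.17, -2.59, -2.46 and -2.20.

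Of 11 core pluripotency genes only *Sox2* was called: 367, 365 and 234 CPM became 617, 739 and 316 CPM (0.75 ± 0.14, adjusted p = 0.0144), with netrin-1 WT 3 below controls 1 and 2. *Pou5f1* (-0.17 ± 0.09) and *Nanog* (0.74 ± 0.30, adjusted p = 0.21) were not called; without the number 3 libraries 1 of the 11 was higher and 4 were lower. None of 11 naive transcription factors was called by edgeR, *Klf4*, *Esrrb*, *Zfp42* and *Prdm14* included; 2 had an unadjusted p below 0.05, DESeq2 called 1, and without the number 3 libraries 3 were lower. Of 14 genes that act downstream in the naive state 3 rose. *Dppa3* (Stella), which protects maternal methylation marks, rose from 0.420, 0.933 and 2.68 CPM to 3.27, 5.41 and 6.88 CPM (2.24 ± 0.36, adjusted p = 0.00784). The glucose transporter *Slc2a3* rose from 610, 546 and 964 CPM to 1159, 1340 and 1225 CPM (0.87 ± 0.18), and *Tcl1*, a coactivator of Akt, by 0.60 on the log2 scale. *Fgf4*, the main FGF ligand of these cells, had a fold change of 0.39 ± 0.12 (adjusted p = 0.11). Of 11 genes of the formative and primed states *Dnmt3a*, a de novo DNA methyltransferase, fell by 0.64 on the log2 scale from 307, 394 and 355 CPM to 218, 217 and 241 CPM, and *Otx2*, *Pou3f1* and *Zic2* were not called.

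Genes of the 2-cell-like state rose. Of 18 tested 9 were called, all higher, with a median of 2.44, against 1.74% called higher over all genes. Within numbers 1, 2 and 3 the medians were 1.61, 1.97 and 3.19. Summed over the list, controls held 23.5, 17.1 and 7.59 CPM and netrin-1 WT 80.1, 70.1 and 82.2 CPM, so the groups did not overlap and control 3 was the lowest. *Zscan4f*, of a zinc finger family that marks this state and acts at telomeres, measured 3.92, 3.52 and 1.12 CPM in controls and 18.0, 16.4 and 10.9 CPM in netrin-1 WT (2.65 ± 0.46, adjusted p = 0.012). *Zscan4e* measured 2.08, 1.22 and 0.391 CPM against 8.56, 8.25 and 3.73 CPM (2.68 ± 0.35, adjusted p = 0.00266). *Zscan4c*, *Zscan4d* and *Zscan4a* rose by 2.26, 2.58 and 2.56. The deubiquitinase gene *Usp17le* and the predicted genes *Gm2022*, *Gm8300* and *Gm5662* were the other 4 called. None of the 9 was called by edgeR without the block. Leaving out control 1, 2 or 3 gave 3, 2 and 5 calls, leaving out netrin-1 WT 1, 2 or 3 gave 5, 4 and 8, the 6 libraries alone gave 2, and leaving out all number 3 libraries gave 11.

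The *Zscan4* promoters are shown to illustrate how alike the copies are, since estimated counts can divide reads between such copies. Each line gives the 250 bases before the RefSeq start (build GRCm38.p6), with capitals for bases that differ from *Zscan4c* where the stretches overlap without gaps.
Zscan4c, chr7:11005495-11005744, plus strand: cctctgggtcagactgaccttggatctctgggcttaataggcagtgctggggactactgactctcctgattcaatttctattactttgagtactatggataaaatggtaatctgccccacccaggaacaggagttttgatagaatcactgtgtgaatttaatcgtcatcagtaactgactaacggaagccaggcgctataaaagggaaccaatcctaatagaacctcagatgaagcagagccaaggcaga
Zscan4d, chr7:11166149-11166398, minus strand: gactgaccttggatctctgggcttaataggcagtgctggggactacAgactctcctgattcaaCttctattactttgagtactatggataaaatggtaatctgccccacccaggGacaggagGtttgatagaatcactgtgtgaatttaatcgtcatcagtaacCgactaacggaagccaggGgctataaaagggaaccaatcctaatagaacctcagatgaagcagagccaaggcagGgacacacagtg
Zscan4f, chr7:11397665-11397914, plus strand: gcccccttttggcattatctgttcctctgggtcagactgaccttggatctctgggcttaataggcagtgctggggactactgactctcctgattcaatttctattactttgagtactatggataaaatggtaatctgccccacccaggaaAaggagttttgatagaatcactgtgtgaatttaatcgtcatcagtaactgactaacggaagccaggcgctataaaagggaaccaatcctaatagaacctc
*Zscan4d* differed from *Zscan4c* at 7 of 239 overlapping bases and *Zscan4f* at 1 of 227. The longest annotated transcripts of *Zscan4a* and *Zscan4c* were 97.9% identical and those of *Zscan4e* and *Zscan4f* 93.2%. Values of single copies are uncertain for that reason, while the sum over the list does not depend on how reads were divided among its members.

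Of 13 tested netrin receptors and partners only *Flrt3* was called. *Flrt3*, a leucine-rich repeat membrane protein that binds Unc5 receptors, measured 26.2, 18.7 and 5.92 CPM in controls and 2.76, 1.62 and 1.26 CPM in netrin-1 WT (-3.06 ± 0.28, adjusted p = 0.000471). Control 3 was the lowest control and still above every netrin-1 WT library. *Neo1* (mean 62.9 CPM in controls and 71.6 in netrin-1 WT), *Unc5b* (24.3 and 21.1) and *Mcam* (62.0 and 63.1) were not called. *Dcc* was too low to be tested, at 0 to 0.133 CPM in controls and 0.0969 to 1.25 CPM in netrin-1 WT. None of 17 receptor effectors, among them *Ptk2* (FAK), *Src*, *Fyn* and *Rac1*, was called by edgeR, nor was any of 14 genes of dependence receptor and intrinsic apoptosis. At an unadjusted p below 0.05 there were 6 effectors and 1 apoptosis gene, DESeq2 called 2 and 0, and without the number 3 libraries edgeR called 3 effectors lower and 1 apoptosis gene higher. Of 24 other guidance genes *Nrp2*, a semaphorin coreceptor, rose from 9.23, 10.7 and 6.81 CPM to 34.2, 39.8 and 19.1 CPM (1.76 ± 0.27, adjusted p = 0.00681).

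Calls in the signalling lists are given beside the number of genes tested. Over all tested genes 3.50% were called, 1.74% higher and 1.76% lower. In the ERK list of 15, *Spry1* rose by 1.0 and *Spry2* fell by 0.56 on the log2 scale, both feedback inhibitors. Of 12 Wnt targets and antagonists only *Dkk1* was called. The ligand gene *Wnt6*, outside that list and chosen after its values were seen, was lower too. Its fold change was -1.43 ± 0.34 (adjusted p = 0.0445, and 0.276 without the block). In the Nodal list of 10, *Skil*, a corepressor, rose by 0.81 and *Lefty1* fell. In the LIF list of 11, the kinase gene *Pim1* rose by 0.55 and the receptor gene *Lifr* fell by 0.52. *Hey1*, a Notch target, was the only call of 8. None of 11 genes of the BMP list was called by edgeR, 2 had an unadjusted p below 0.05 and DESeq2 called 0. Without the number 3 libraries 1 of them was lower. That list leaves out *Bmp2*, called lower among the primitive endoderm signals. It also leaves out *Bmp6* (-1.59 ± 0.31) and *Bmper* (-3.49 ± 0.57), both called lower. Among 17 IDs of the ATF4 response, 3 fell: *Psat1* of serine synthesis, *Mthfd2* of mitochondrial folate metabolism and *Chac1*, which degrades glutathione. *Psat1* measured 171, 145 and 425 CPM against 94.2, 80.9 and 227 CPM (-0.87 ± 0.17), overlapping only between numbers. *H19*, an imprinted maternal RNA, was the only call of 23 imprinted genes, at 30.4, 42.1 and 190 CPM against 8.66, 15.4 and 43.7 CPM (-1.80 ± 0.27, adjusted p = 0.00541).

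Of 13 epithelial junction genes 3 were called higher and 11 had a fold change above 0, with a median of 0.59 (1.74% of all genes were called higher). In edgeR 0 of them were called without the block, with the 6 libraries alone, or without control 1, control 2, netrin-1 WT 1 or netrin-1 WT 2, and without the number 3 libraries 6 were higher and 2 lower. P-cadherin, *Cdh3*, rose from 3.98, 5.09 and 6.37 CPM to 17, 30.9 and 8.19 CPM (1.78 ± 0.35, adjusted p = 0.0218). *Epcam*, an epithelial adhesion molecule, rose by 0.87 and *Cldn4*, a claudin, by 0.59, and in both the number 3 difference was the smallest (0.11 and 0.30). *Cdh1* and *Ctnnb1* were not called. Of 15 integrin genes *Itga9* rose by 0.71 and *Itga5*, the fibronectin receptor chain, fell by 0.69. Neural genes gave 1 call in 9: *Sox21* rose from 2.5, 3.20 and 0.447 CPM to 24.8, 47.7 and 3.34 CPM (3.41 ± 0.51, adjusted p = 0.00578), the largest increase after *Ntn1* at 5 CPM or more. Trophectoderm genes gave 2 in 11, *Tfap2c* higher and *Plac1* (under 1 CPM) lower. Of 16 germline genes silenced by DNA methylation *Sohlh2*, a germ cell factor, rose from 66.7, 56.9 and 68.5 CPM to 238, 269 and 306 CPM (2.08 ± 0.19, adjusted p = 0.000502). Other calls were *Ccna2* higher and *Ccne1* lower among 21 cell cycle genes, *Zmat3* higher among 11 p53 targets, *Herpud1* lower among 13 endoplasmic reticulum chaperones, and 2 lower among 20 cholesterol genes, *Sqle* being 1 of them. Mesendoderm, glycolysis, mesenchymal, blood, Y-linked, brush border and mitochondrially encoded genes gave 0 calls in edgeR. At an unadjusted p below 0.05 they gave 0, 1, 2, 1, 3, 1 and 5 genes, and DESeq2 called 1 blood, 1 Y-linked and 2 mitochondrial genes. Without the number 3 libraries edgeR called 7 of 19 glycolysis IDs and 1 mesendoderm gene higher and 6 of 13 mitochondrial mRNAs lower, and 0 in the other 4 lists. All 13 mitochondrial mRNAs had a fold change below 0, with a median of -0.26.

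*Magee2*, an X-linked gene of the MAGE family, had 0 counts in all 3 controls and 3.32, 3.90 and 1.31 CPM in netrin-1 WT. Against a floor of 3 counts over the 3 controls it was at least 99.5-fold higher. Other genes called higher with and without the block were *Lmo7* (1.23 ± 0.15), an adherens junction protein, *St8sia1* (1.58 ± 0.18), a ganglioside sialyltransferase, and *Cog6*, *Supt20*, *Setd7* and *Sohlh2* on chromosome 3.

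Calls were uneven along the genome, in parts chosen after the values were seen. Between 5 and 55 Mb of chromosome 3 (GRCm38), 86 of 235 tested genes were higher (36.6%) and 0 lower, against 1.28% higher outside the parts described here. Lower at an unadjusted p below 0.05 in edgeR were 3, and DESeq2 called 0 lower. The median of the 99 genes there over 10 CPM was 0.92, and 1.0, 0.96 and 0.79 within numbers 1, 2 and 3. *Supt20*, a subunit of the SAGA complex at chr3:54692807-54728766, measured 109, 101 and 96.5 CPM against 303, 332 and 232 CPM (1.49 ± 0.11, adjusted p = 0.000292). *Stmn2*, a tubulin-binding protein, measured 268, 224 and 249 CPM against 523, 434 and 510 CPM (0.99 ± 0.09). *Exosc8*, *Nhlrc3*, *Proser1*, *Cog6*, *Setd7*, *Car13*, *Lrrc34* and *Lrrc31* lie in the same part, and *Spg20* and *Sohlh2* just beyond it. So do *Sox2*, *Ccna2*, *Spry1*, *Skil*, *Hey1* and *Zmat3*, 6 of the 29 list genes called higher. Whether these genes rose with their lists or with their neighbours on the chromosome was not tested.

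Between 120 and 137 Mb of chromosome 6, 27 of 188 genes were higher (14.4%), with a median of 0.42 over the 80 genes above 10 CPM. *Dppa3* and *Slc2a3* lie there, 2 of the 3 naive-state genes called. *St8sia1* and *Itpr1* (1.10 ± 0.13), an inositol trisphosphate receptor, had the lowest adjusted p of the chromosome and lie outside that part. On chromosome 15, 59 of 805 genes were lower (7.33%) and 2 higher, against 1.49% lower outside the parts. The median of 402 genes above 10 CPM was -0.34, with -0.49, -0.46 and -0.06 within numbers 1, 2 and 3. *Dab2*, *Itga5*, *Lifr* and *Sqle* are on this chromosome, as is *Ly6e*, a membrane-anchored protein (-0.73 ± 0.09, adjusted p = 0.00256). Outside all described parts 252 genes were higher and 293 lower, *Gata6*, *Sox17*, *Cubn*, *Amn* and *Ntn1* among them.

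**Figure D4:**
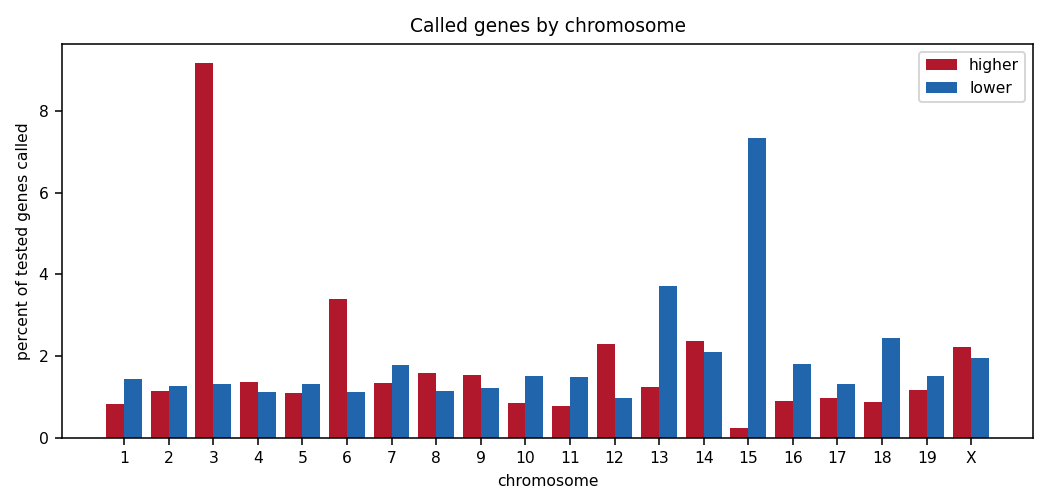
Percent of tested genes called higher (red) and lower (blue) in netrin-1 WT on each chromosome. Chromosome 3 stands out for higher genes (9.18%) and chromosome 15 for lower genes (7.33%).

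The effect was then compared between number 3 and numbers 1 and 2, with an interaction term that treats the lone number 3 library of a group as varying like the others. At an adjusted p of 0.05, 4 genes differed (0.0190%), and 3619 at an unadjusted p of 0.05. In a fit of the 6 libraries alone 498 differed. Of the 737 called genes 366 of the 367 higher and 365 of the 370 lower ones had differences of 1 sign in all 3 numbers, against 33.4% of all tested genes. The test with the block favours such genes, so this share is not independent evidence that the numbers were alike. *Gata6*, with differences of -2.71, -2.46 and -1.56, and *Cubn*, with -3.57, -3.67 and -4.39, were examples, and neither passed the interaction test (adjusted p = 0.207 and 0.21).

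**Figure D5:**
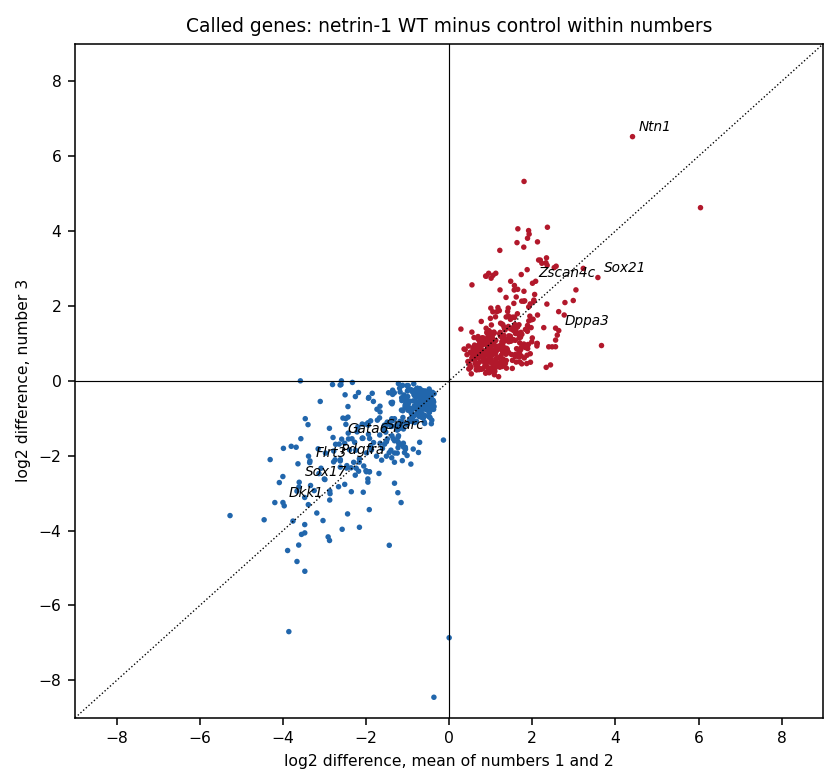
Difference in log2 CPM between netrin-1 WT and control within number 3 (vertical axis) against the mean difference within numbers 1 and 2 (horizontal axis), for the 737 called genes; the dotted line marks equality. Red points are higher and blue points lower; *Ntn1* lies above the line at 6.52 in number 3, with 4.22 and 4.61 in numbers 1 and 2.

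The lead genes were last set beside the point mutants, which also carry the vector. For 17 lead genes, chosen after their values were seen, netrin-1 WT differed from unc5B MUT in 15 and from neo1 MUT in 3 (over all genes, 1.97% and 1.99% were called). The same netrin-1 WT libraries enter these contrasts, so the shares over all genes are not a like baseline for genes chosen this way. *Ntn1* did not pass against either (0.37 ± 0.30 and 0.34 ± 0.30). *Gata6* measured 50.7, 39.1 and 40.0 CPM in unc5B MUT, above every netrin-1 WT library (-1.69 ± 0.22, adjusted p = 0.00558). In neo1 MUT it measured 16.7, 13.8 and 10.3 CPM (-0.03 ± 0.22, adjusted p = 0.978). These values overlapped those of netrin-1 WT, with neo1 MUT 3 just below the lowest netrin-1 WT library. *Pdgfra* gave -2.16 ± 0.24 against unc5B MUT and 0.09 ± 0.24 against neo1 MUT, and *Cubn* -2.58 ± 0.33 and -0.76 ± 0.32. *Amn* was lower in netrin-1 WT than in both mutants: unc5B MUT measured 7.51, 7.27 and 9.83 CPM and neo1 MUT 4.83, 4.55 and 5.25 CPM (-1.91 ± 0.18 and -1.17 ± 0.18). *Zscan4e* was higher in netrin-1 WT than in unc5B MUT (2.36 ± 0.34) and near neo1 MUT (0.09 ± 0.31, adjusted p = 0.939). *Supt20* and *Sohlh2*, on chromosome 3, were higher in netrin-1 WT than in both (*Supt20*, 1.37 ± 0.11 and 1.31 ± 0.11). A difference that missed the threshold against neo1 MUT does not show equal levels. Without the replicate block 0 of the 17 genes were called against either mutant (edgeR, lowest adjusted p 0.0652 for unc5B MUT and 0.0569 for neo1 MUT). Without netrin-1 WT 2, 6 of the 15 unc5B MUT calls were kept, and without netrin-1 WT 1, 11. Without the number 3 libraries 16 genes were called against unc5B MUT and 9 against neo1 MUT, *Cubn*, *Dab2*, *Col4a2*, *Flrt3*, *Foxq1* and *Sox21* being added to the 3; without netrin-1 WT 3, 5 were called against neo1 MUT.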

How the data were processed

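Total RNA of CGR8 cells was purified on columns and made into Illumina libraries, per the labels' protocols. The deposited raw table holds estimated counts by the authors for 52661 Ensembl genes; 53.8% to 58.3% of a library's values were not whole. Tools in the submitters' processing notes are STAR 2.5.2b, DESeq2, R 3.3.2, Bowtie2, Bowtie and FastQC 0.11.5, and builds GRCm38.p5, mm10 and GRCh38, with no role given. The counting program and the use of strand are not given in the sources used here; overlapping or near-identical genes may share reads. The authors' deposited table of log2 fold changes and p-values was compared only as counts.

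Counts were rounded and fitted in edgeR 4.0.16 (with limma 3.58.1 on R 4.3.3; tables read by data.table, release 1.17.8): 12 libraries, group plus replicate number, TMM, filterByExpr (21053 genes), quasi-likelihood F-test, Benjamini-Hochberg over all tested genes, threshold 0.05. SE is the fold change divided by the square root of F. Within-number values are differences of log2 CPM (prior count 2) and have no test. The step was tested on simulated data. Names and coordinates are from GENCODE M21 (GRCm38), promoters from RefSeq (GRCm38.p6).

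Replicate numbers come from the titles. Deviations of same-numbered libraries from their group means correlated at 0.58 to 0.881 in every pair, above the minimum of 0.1, so the numbers were treated as pairs (what they mean is not stated). Numbers 1 and 2 also correlated with each other across groups (control 2 with netrin-1 WT 1, 0.729; with netrin-1 WT 2, 0.665), so these correlations set only number 3 apart. Libraries 1 and 2 of each group differed by far more than counting noise (chi-square per gene 19.7 in netrin-1 WT and 30.8 in controls, where 1 is expected), so none was counted as a duplicate.

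Named genes were, each way, the 12 with the largest fold change at 5 CPM or more and the 8 at 50 CPM or more, of 1 sign in all 3 numbers; genes called with and without the block; list members with the lowest adjusted p; and up to 2 genes per chromosome described. Some genes this rule takes are not reported here. Genes outside it are said to be chosen after their values were seen. The comparison, the 42 gene lists and the rule were chosen with earlier results of these data known. Alternatives were RLE size factors, other filters, DESeq2 1.42.0, limma-voom, the 6 libraries alone, no block, other thresholds and left-out libraries.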

Additional observations from a re-analysis of the deposited data

Results flagged for a closer look

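The difference between netrin-1 WT and control was not the same in number 3 as in numbers 1 and 2 for 4 genes (edgeR interaction test, adjusted over 21053 genes). They are 2 processed pseudogenes, 1 long non-coding RNA and *Sap18*, a subunit of histone deacetylase complexes, and none was called in the main comparison. For *Rps16-ps2*, a ribosomal protein pseudogene, the number 3 effect was 15.6 ± 1.08 (log2, SE) higher (adjusted p = 0.00735): controls measured 320, 394 and 0 CPM and netrin-1 WT 381, 369 and 175 CPM, so the value rests on a 0 in control 3 and is no bound. For *Gm48492* it was 12 ± 1.02 higher (adjusted p = 0.0197), with controls at 2.24, 1.63 and 0 CPM and netrin-1 WT at 2.78, 3.66 and 23.3 CPM, so it too rests on a 0 in control 3 and is no bound. For *Sap18* it was -3.52 ± 0.37 (adjusted p = 0.0489): control 3 stood at 82.8 CPM and the other 5 libraries between 5.43 and 16.6 CPM. For *Gm10123* it was -2.10 ± 0.20 (adjusted p = 0.036), with netrin-1 WT 3 at 73.1 CPM and the other 5 libraries between 314 and 434 CPM. Reads of the pseudogenes can be shared with their parent genes.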

How the results depend on the processing

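Numbers of calls depended on the fit. Against 737 calls (367 higher, 370 lower), the fit without the replicate block, that is without the pairing, gave 21 (7, 14), the 6 libraries alone 100 (38, 62), DESeq2 1750 (828, 922), limma-voom 1221 (576, 645), a threshold of 0.01 221 (113, 108), a 2-fold minimum 440 (233, 207) and the 8 libraries without number 3 3450 (1539, 1911). Leaving out 1 control or netrin-1 WT library gave 211 to 1861 calls (93 to 895 higher, 97 to 966 lower); 162 genes were called in all 6 such fits, and the lowest counts came without control 1 (211) and netrin-1 WT 2 (219), the highest without netrin-1 WT 3. Of 495 tested list genes 75 were called, 8 without the block, 30 with the 6 libraries alone, 118 with DESeq2, 38 at 0.01, 164 without number 3 and 36 to 107 in the leave-one-out fits. Of the primitive endoderm genes 29 were lower, 7 without the block and 19 with the 6 libraries alone. The interaction gave 4 calls, 498 with the 6 libraries alone. The cause of these differences between fits was not tested. Of 103 called genes among those named or listed, 55 were called in every leave-one-out fit, none changed sign in any setting run, and dropping the block ended 82 calls; limma-voom ended none, nor did DESeq2 among the 100 with an adjusted p. For the 17 lead genes, settings added after seeing the data gave 6 to 16 calls against unc5B MUT (15 as reported) and 3 to 9 against neo1 MUT (3), and 0 against both without the block. Among list genes not called, without number 3 *Pfkl* (0.49), *Insig1* (0.43), *Dhcr7* (0.47) and *Pgk1* (0.50) were called with the opposite sign; the cause was not tested. Genes under 1 CPM rest on few counts.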

Other observations

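Several secreted factors and receptors outside the lists also differed; they were chosen after their values were seen. *Klb*, the coreceptor of endocrine FGFs, stood at 28.7, 18.8 and 13.5 CPM in controls and 3.08, 2.04 and 1.11 CPM in netrin-1 WT (-3.35 ± 0.37, adjusted p = 0.00106). *Fgf10*, a ligand of Fgfr2, fell by 2.97 and *Ghr*, the growth hormone receptor, by 4.24 on the log2 scale. *Bmp6* measured 14.2, 10.4 and 16.8 CPM against 4.31, 5.46 and 3.68 CPM (-1.59 ± 0.31), and *Runx1*, a transcription factor of blood formation, 11.7, 9.23 and 12.7 CPM against 2.36, 1.33 and 3.97 CPM (-2.27 ± 0.36). *Kit*, the receptor of stem cell factor, rose from 40.1, 49.5 and 81.7 CPM to 67.1, 94.1 and 165 CPM (0.90 ± 0.11, adjusted p = 0.00164), and *Igf1r* by 0.75 and *Ntrk2* by 1.62.

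The cytosolic aminoacyl-tRNA synthetases, which charge tRNAs with amino acids, were also chosen after their values were seen. All 20 genes tested had a fold change below 0, with a median of -0.38 and a range of -0.63 to -0.09; 5 were called lower (*Gars*, *Lars*, *Nars*, *Sars* and *Tars*; 1.76% of all genes were called lower) and 0 higher in edgeR, in DESeq2 or at an unadjusted p below 0.05. In edgeR 0 were called without the block, with the 6 libraries alone, or without netrin-1 WT 1 or 2; 2 were called without control 1 or control 2, and 10 without the number 3 libraries or netrin-1 WT 3. *Nars* measured 333, 313 and 351 CPM in controls and 230, 201 and 213 CPM in netrin-1 WT.

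Between 30 and 45 Mb of chromosome 13, 18 of 100 tested genes were lower, against 1.49% outside the chromosome parts described, with a median of -0.53 over the 40 genes above 10 CPM. *Foxq1* and *Foxf2* (-4.02 ± 0.40), neighbouring forkhead genes, lie there, as does *Bmp6*. *Ghr* and *Tars* lie on chromosome 15, where calls were also mostly lower. Whether these genes fell with their neighbours was not tested.

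The authors' deposited table gave 900 genes with an adjusted p below 0.05 for this comparison (431 higher, 469 lower); 640 of them were called here in the same direction, 71.1% of that list and 86.8% of the calls reported here.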
